A study of Mus musculus with 6 samples.

Results

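A set of 10 genes of the Notch pathway were described in alveolar type II cells (AT2s), the surfactant-producing stem cells of the alveolus, with and without a constitutively active BMP receptor. They are the receptors *Notch1*, *Notch2*, *Notch3* and *Notch4*, the ligands *Jag1*, *Jag2* and *Dll4*, and the target genes *Hes1*, *Hey1* and *Nrarp*, and were taken by symbol as 10 of the 24421 rows of the deposited count table. RNA was sequenced from lineage-labeled AT2s sorted by FACS, in 3 libraries from AT2CTRL mice (*Sftpc-CreERT2/+; R26-tdTomato/+*) and 3 from AT2CAB mice (*Sftpc-CreERT2/+; R26-tdTomato/R26-caBmpr1a*), all carrying Cre and the tdTomato reporter on a C57BL/6 background. Tamoxifen switches on tdTomato in both groups, and in AT2CAB also caBmpr1a, which signals without BMP ligand. Cre is driven from the *Sftpc* locus, and the sort read the reporter and not caBmpr1a, so sorted cells that recombined the reporter alone cannot be told apart from the others. In each group 1 library came from a 16-week-old mouse (AT2CTRL replicate 2 and AT2CAB replicate 1) and the other 2 from 12-week-old mice.

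Notch receptors are single-pass membrane proteins that bind Jagged and Delta-like ligands on neighboring cells. Binding exposes the receptor to ADAM proteases and then to γ-secretase, which releases an intracellular domain that joins RBPJ and Mastermind proteins on DNA and turns on genes of the *Hes* and *Hey* families and *Nrarp*. In the lung, Notch signaling is known for its part in the choice between secretory and ciliated fates in the airway, and in AT2s during alveolar growth. *Hes1*, *Hey1* and other genes of these families can also respond to BMP signaling in some cells.

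Library totals lay between 21554249 and 28440227 counts, and 3 counts in a library, the floor used here, correspond to between 0.0976 and 0.138 CPM (each gene's counts relative to the TMM-scaled library total), which covers counting error only. *Sftpc*, the defining surfactant gene of AT2s, was at 42700 to 60120 CPM in AT2CTRL and at 42840 to 45460 CPM in AT2CAB. *Id1*, a direct BMP target, was at 18.5, 20.8 and 19.2 CPM in AT2CTRL replicates 1, 2 and 3 and at 124, 177 and 411 CPM in AT2CAB (log2 fold change 3.61, edgeR adjusted p = 0.0172). Of 9 listed BMP target genes all 9 had higher means in AT2CAB, and 5 were called. AT2CTRL replicate 1 and AT2CAB replicate 3 hold reads on 4 Y-linked genes (176 and 146 CPM) that are at 0 in the other 4 libraries, and these libraries also stand apart from the others in overall expression. Results that rest on them are given with and without them. The labels number the replicates without stating that each is a separate mouse, so p-values measure the spread between these libraries. Every pair of libraries within a group differed by more than counting noise.

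In brief, the receptor genes overlapped between the groups over all 6 libraries, *Notch2* through AT2CTRL replicate 1 alone. The ligand *Jag1* was lower in every AT2CAB library than in any AT2CTRL library, and *Jag2*, *Dll4* and *Nrarp* were higher in every one. None of the 10 genes passed an adjusted p under 0.05 in the edgeR quasi-likelihood test, in which Benjamini-Hochberg adjustment ran over the 16723 genes that passed the expression filter, all 10 among them. The background for that threshold was 0.239% of tested genes called higher and 0.0120% called lower. At an unadjusted p under 0.05, 4 of the 10 were higher (*Notch4*, *Jag2*, *Dll4* and *Nrarp*) and 1 was lower (*Jag1*), against 4.62% higher and 5.05% lower of all tested genes. The 3 genes that lay wholly above AT2CTRL compare with 7.0% of all tested genes, and the 1 wholly below with 10.1%. With DESeq2, the tool named in the study's methods, *Jag2* and *Dll4* were called higher and *Jag1* lower, where 1.45% and 0.644% of the 13672 genes given an adjusted p were called in those directions. The median log2 fold change was 0.44 over the 10 genes and -0.0096 over all tested genes, and 8 of the 10 were positive. In bulk RNA such as this, fewer cells of a type and less RNA per cell cannot be told apart.

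**Figure D1:**
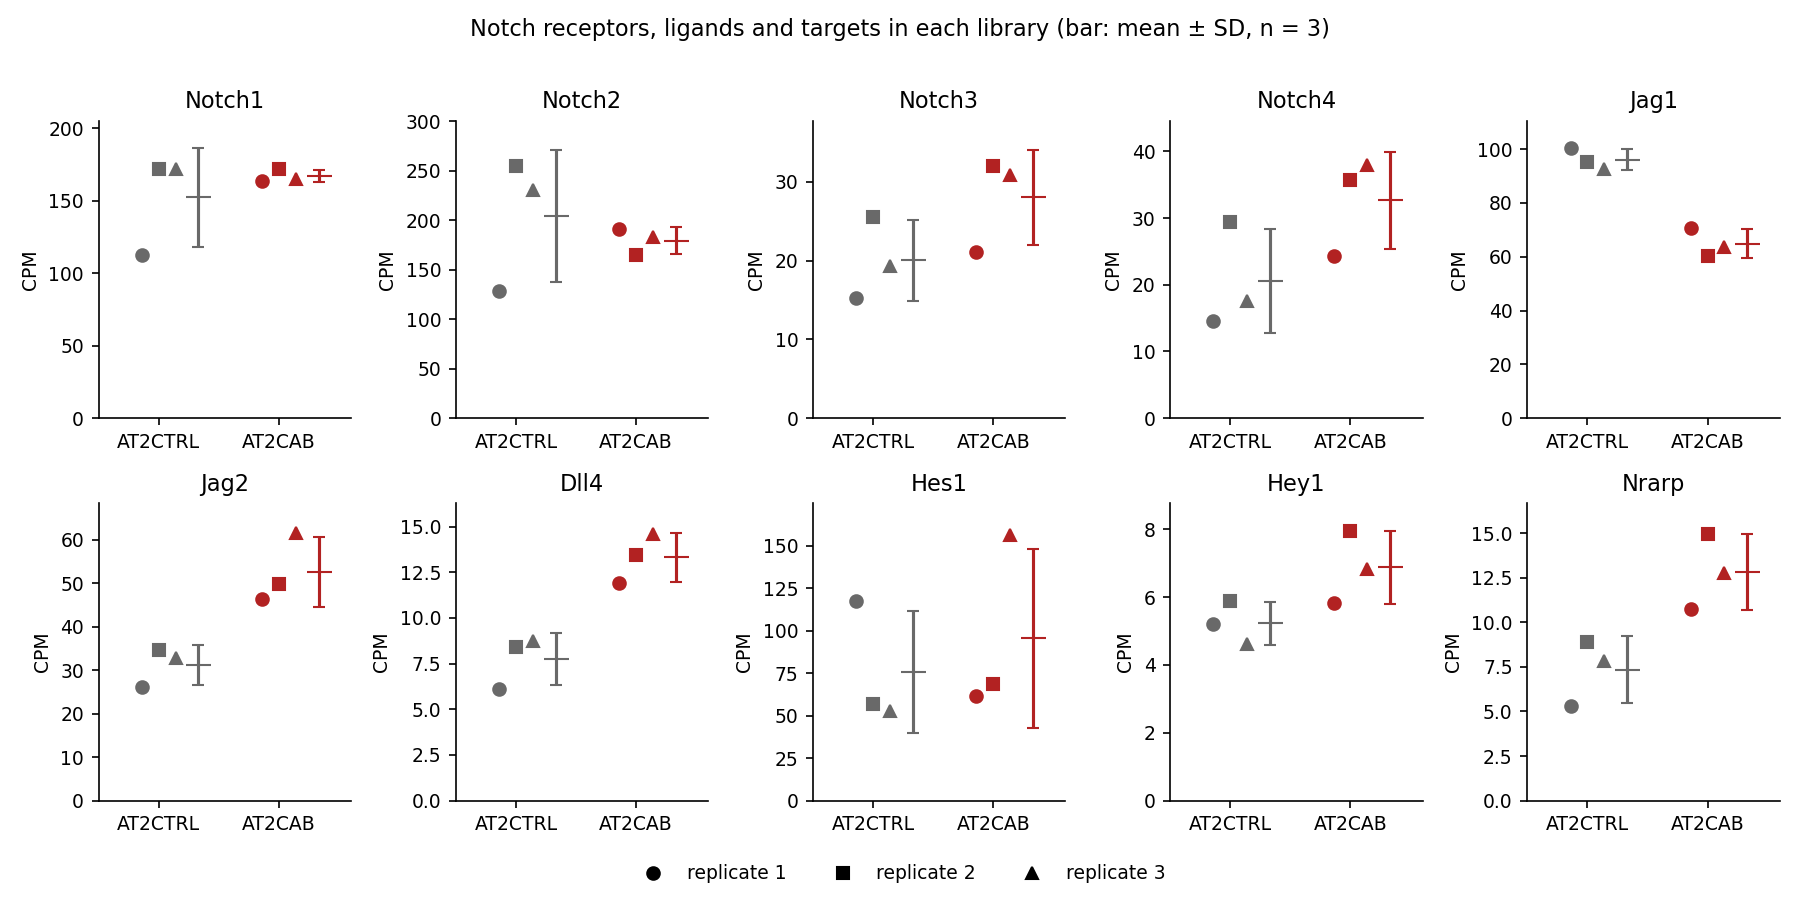
Expression of the 10 genes in each library, in CPM on linear axes that start at 0. Each point is 1 library, its shape gives the replicate number and the bar beside each group gives the mean and SD (n = 3). *Jag1* lies lower in all 3 AT2CAB libraries, *Jag2*, *Dll4* and *Nrarp* lie higher in all 3, and *Hes1* is highest in AT2CAB replicate 3 and AT2CTRL replicate 1.

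The stretches of DNA just upstream of the 4 genes whose groups did not overlap are shown because these are the genes the comparison turns on. Each is the 250 bases before the RefSeq gene start on GRCm38.p6 (mm10), written 5′ to 3′ on the gene's own strand. Capitals mark E-box (CANNTG) and N-box (CACNAG) matches on either strand, the letters bound by bHLH proteins, the class to which the HES and HEY repressors belong. *Jag1* is at chr2:137116521-137116770 on the minus strand, *Jag2* at chr12:112929496-112929745 on the minus strand, *Dll4* at chr2:119325534-119325783 on the plus strand and *Nrarp* at chr2:25180508-25180757 on the plus strand.
Jag1: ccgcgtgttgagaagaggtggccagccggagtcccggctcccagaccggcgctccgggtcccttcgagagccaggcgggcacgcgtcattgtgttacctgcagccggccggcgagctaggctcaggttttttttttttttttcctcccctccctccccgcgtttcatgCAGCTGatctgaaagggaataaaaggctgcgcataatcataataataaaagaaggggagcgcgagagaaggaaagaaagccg
Jag2: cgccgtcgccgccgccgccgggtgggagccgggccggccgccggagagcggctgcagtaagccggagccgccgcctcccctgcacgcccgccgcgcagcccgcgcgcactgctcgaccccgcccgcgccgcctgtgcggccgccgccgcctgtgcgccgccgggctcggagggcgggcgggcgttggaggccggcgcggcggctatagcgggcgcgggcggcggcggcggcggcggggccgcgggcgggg
Dll4: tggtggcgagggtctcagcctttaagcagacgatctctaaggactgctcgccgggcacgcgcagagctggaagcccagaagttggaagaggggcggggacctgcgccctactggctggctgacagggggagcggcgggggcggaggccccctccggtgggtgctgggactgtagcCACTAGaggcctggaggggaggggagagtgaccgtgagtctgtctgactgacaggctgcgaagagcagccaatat
Nrarp: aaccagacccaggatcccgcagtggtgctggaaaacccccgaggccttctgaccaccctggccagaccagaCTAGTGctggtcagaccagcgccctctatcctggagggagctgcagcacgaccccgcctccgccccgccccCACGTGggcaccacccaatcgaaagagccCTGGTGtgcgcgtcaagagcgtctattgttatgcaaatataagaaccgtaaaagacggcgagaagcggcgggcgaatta

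The *Jag1* window holds 1 E-box (CAGCTG) and no N-box, the *Dll4* window 1 N-box (CACTAG), and the *Jag2* window neither, in a run that is 87.2% G or C. The *Nrarp* window holds 1 E-box (CACGTG) and 2 N-boxes that lie on the other strand and appear here as CTAGTG and CTGGTG. No E-box overlaps an N-box in these windows. RefSeq promoter sequences were matched for 8 of the 10 genes, and *Hes1* and *Hey1* had no entry. Among those 8, 3 windows hold an E-box and 5 an N-box, compared with 66.2% and 36.7% of 32851 mouse promoter windows of the same length. The RBPJ core letters TGGGAA are in 0 of the 8 windows and in 21.6% of all windows, and the GC-rich SMAD letters GGCGCC are in 0 of the 8 and in 9.59% of all windows. These are matches of letters in a short window only.

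*Jag1*, a ligand of the Jagged type, is on chromosome 2 from 137081451 to 137116520 (mm10, minus strand). It was at 100.4, 95.2 and 92.8 CPM in AT2CTRL replicates 1, 2 and 3, and at 70.8, 60.2 and 63.5 CPM in AT2CAB replicates 1, 2 and 3. The lowest AT2CTRL library was thus well above the highest AT2CAB library, and the spread within each group was small. Mean expression was 96.1 ± 3.89 CPM in AT2CTRL and 64.8 ± 5.45 CPM in AT2CAB (SD, n = 3), a ratio of 0.675 with a 95% interval of the edgeR fold from 0.567 to 0.803. This is a log2 fold change of -0.57 (SE 0.11), with an edgeR adjusted p of 0.127 and a DESeq2 adjusted p of 0.00319. Left out 1 at a time, no library moved it outside -0.61 to -0.50.

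*Jag2*, the other Jagged ligand, is on chromosome 12 from 112908590 to 112929495 on the minus strand. It was at 26.1, 34.6 and 32.9 CPM in AT2CTRL and at 46.4, 49.7 and 61.6 CPM in AT2CAB, in replicate order. The groups did not overlap, and the direction was opposite to that of *Jag1*. Means were 31.2 ± 4.52 and 52.5 ± 7.98 CPM (SD, n = 3), a ratio of 1.69 with an interval of the edgeR fold from 1.31 to 2.16. The log2 fold change was 0.75 (SE 0.16), with an edgeR adjusted p of 0.150 and a DESeq2 adjusted p of 0.00774.

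*Dll4*, a Delta-like ligand best known from endothelial cells, is on chromosome 2 from 119325784 to 119335666 on the plus strand. It was at 6.10, 8.40 and 8.72 CPM in AT2CTRL and at 11.9, 13.5 and 14.6 CPM in AT2CAB, from between 136 and 448 counts a library. All AT2CAB values again lay above all AT2CTRL values. Means were 7.74 ± 1.43 and 13.3 ± 1.34 CPM (SD, n = 3), a ratio of 1.72 with an interval of the edgeR fold from 1.28 to 2.32. On the log2 scale the fold change was 0.78 (SE 0.19), with an edgeR adjusted p of 0.228 and a DESeq2 adjusted p of 0.0431. Of its 3451 exon bases, 217 (6.29%) are shared with *Gm14207*, and reads there were left out of the counting.

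Since *Jag1* and *Jag2* differed in opposite directions, the makeup of the ligand pool was compared within each library, on values per length (RPKM, CPM divided by the summed exon length in kilobases). *Jag1* made up 61.3%, 56.4% and 57.0% of the summed RPKM of *Jag1*, *Jag2*, *Dll4*, *Dll1* and *Dll3* in AT2CTRL replicates 1, 2 and 3, and 43.1%, 36.9% and 32.2% in AT2CAB. *Jag2* made up 21.6%, 27.8% and 27.4% in AT2CTRL and 38.2%, 41.4% and 42.3% in AT2CAB. *Jag1* was therefore the most abundant ligand transcript in all 3 AT2CTRL libraries, while in AT2CAB *Jag2* exceeded it in 2 of 3. The ratio of *Jag1* to *Jag2* in RPKM was 2.84, 2.03 and 2.08 in AT2CTRL and 1.13, 0.893 and 0.762 in AT2CAB. *Dll4* contributed 7.46% ± 1.36 in AT2CTRL and 12.1% ± 0.875 in AT2CAB (SD, n = 3). The sum of the 3 ligands was nearly level, at 26.5, 28.3 and 27.5 RPKM in AT2CTRL and 27.8, 27.1 and 31.0 RPKM in AT2CAB, and these sums overlapped. For any of these shares and ratios an exact two-sided permutation test of 3 libraries against 3 cannot go below p = 0.1, the value that non-overlapping groups give, so the size of the gap is the result here.

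**Figure D2:**
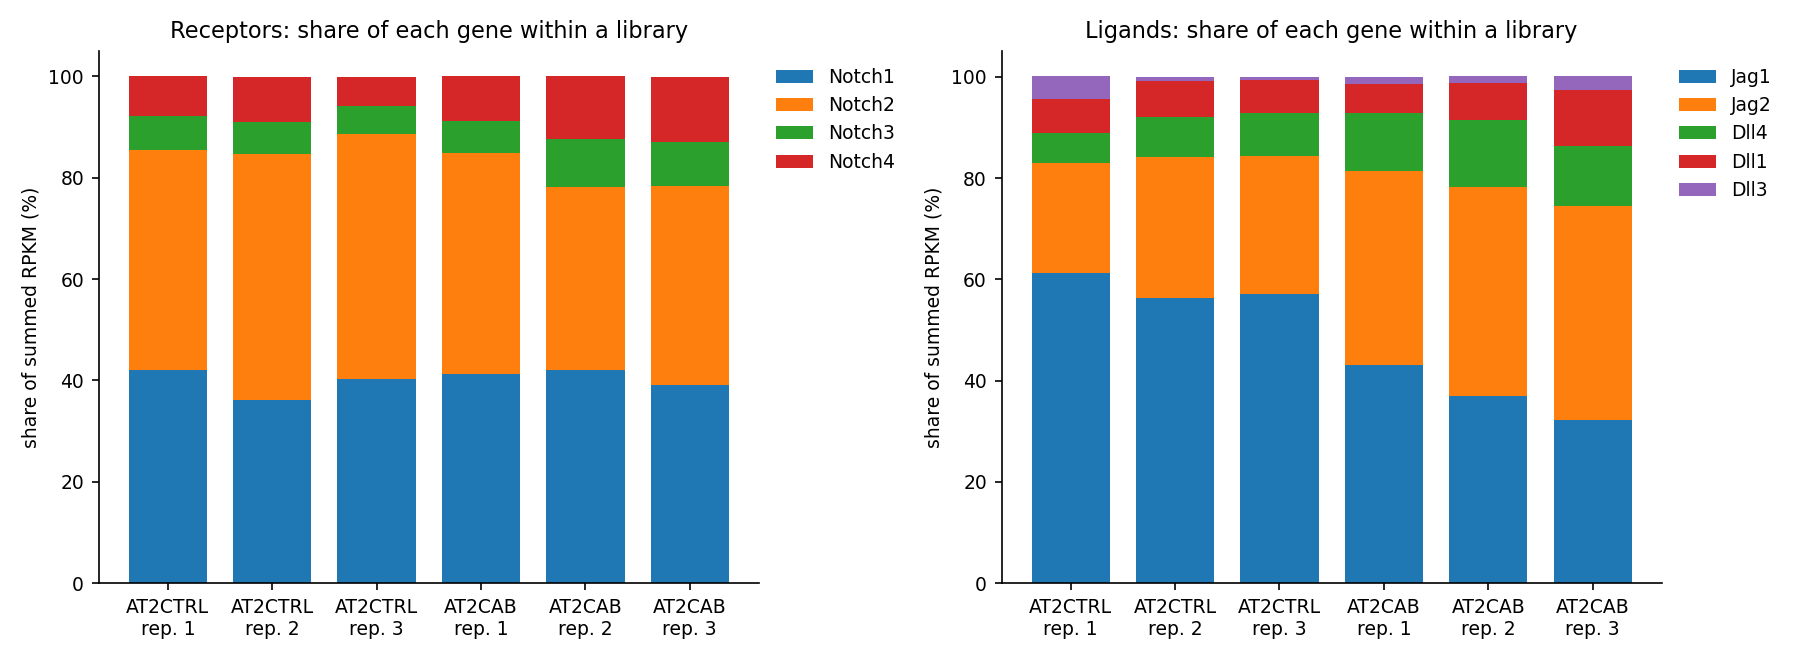
Share of each gene in the summed RPKM of the 4 receptors (left) and of 5 ligands (right), in percent, with 1 stacked bar for each library. In the ligand panel the share of *Jag1* goes from 56.4% or more in AT2CTRL to 43.1% or less in AT2CAB, and the share of *Jag2* is larger in every AT2CAB library, whereas the receptor shares of *Notch1* and *Notch2* remain the largest in all 6 libraries.

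Among the receptors, *Notch1* and *Notch2* carried most of the signal in both groups. *Notch1*, on chromosome 2 from 26457902 to 26503822 on the minus strand, was at 113, 172 and 172 CPM in AT2CTRL and at 164, 172 and 165 CPM in AT2CAB. *Notch2*, on chromosome 3 from 98013538 to 98150367 on the plus strand, was at 128, 255 and 230 CPM in AT2CTRL and at 191, 164 and 183 CPM in AT2CAB. For both, AT2CTRL replicate 1 was the lowest of the 6 libraries and the groups overlapped. By edgeR the log2 fold change was 0.13 for *Notch1* (95% interval -0.26 to 0.52, edgeR adjusted p = 0.833) and -0.19 for *Notch2* (-0.72 to 0.35, adjusted p = 0.828). Without AT2CTRL replicate 1 that of *Notch1* was -0.048 and that of *Notch2* was -0.44, so the value of *Notch1* near 0 had no stable sign. That of *Notch2* stayed negative but ranged in size, and was -0.0062 without AT2CTRL replicate 2. Without the 2 libraries with Y-linked reads that of *Notch2* was -0.41 (edgeR adjusted p = 0.120).

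*Notch3*, the receptor of mural cells and fibroblasts, is on chromosome 17 from 32120893 to 32166852 on the minus strand. It was at 15.2, 25.5 and 19.4 CPM in AT2CTRL and at 21.1, 32.1 and 30.9 CPM in AT2CAB. *Notch4*, a receptor expressed mainly by endothelial cells, is on chromosome 17 from 34564295 to 34588543 on the plus strand. It was at 14.6, 29.4 and 17.6 CPM in AT2CTRL and at 24.3, 35.7 and 38.0 CPM in AT2CAB. In both genes 2 of 3 AT2CAB libraries lay above all AT2CTRL libraries, and AT2CAB replicate 1 lay below AT2CTRL replicate 2. The log2 fold change was 0.49 for *Notch3* (SE 0.22, edgeR adjusted p = 0.540) and 0.67 for *Notch4* (SE 0.27, edgeR adjusted p = 0.488), with a 95% interval for *Notch4* from 0.044 to 1.30. Without the 2 libraries with Y-linked reads these were 0.29 and 0.39.

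Within the receptor pool, *Notch2* held 43.3%, 48.4% and 48.5% of the summed RPKM in AT2CTRL and 43.6%, 36.2% and 39.1% in AT2CAB. *Notch1* held 39.5% ± 3.00 and 40.8% ± 1.44 (SD, n = 3), so the larger of the pair was *Notch2* in all 3 AT2CTRL libraries and in AT2CAB replicate 1 only. *Notch3* held 6.21% ± 0.721 in AT2CTRL and 8.15% ± 1.58 in AT2CAB, and *Notch4* held 7.54% ± 1.53 and 11.4% ± 2.27 (SD, n = 3). The summed receptor RPKM was 28.2, 50.0 and 45.2 in AT2CTRL and 41.8, 43.2 and 44.5 in AT2CAB. The low value of AT2CTRL replicate 1 made the AT2CTRL range contain the whole AT2CAB range.

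*Nrarp*, which is turned on by Notch and limits it by destabilizing the intracellular domain, was the target gene whose groups did not overlap. It is on chromosome 2 from 25180758 to 25183332 on the plus strand, and was at 5.29, 8.92 and 7.84 CPM in AT2CTRL and at 10.7, 15.0 and 12.8 CPM in AT2CAB. These values rest on between 118 and 392 counts a library. Means were 7.35 ± 1.86 and 12.8 ± 2.12 CPM (SD, n = 3), a ratio of 1.74 with an interval of the edgeR fold from 1.21 to 2.51. The log2 fold change was 0.80 (SE 0.23, edgeR adjusted p = 0.321), and it lay between 0.61 and 0.96 when libraries were left out 1 at a time.

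*Hes1*, a bHLH repressor and a target of Notch in many tissues, had the highest level per length of the 10 genes. It is on chromosome 16 from 30065357 to 30067796 on the plus strand, and was at 117, 56.8 and 52.9 CPM in AT2CTRL and at 61.6, 68.5 and 156 CPM in AT2CAB. The 2 high libraries, AT2CTRL replicate 1 and AT2CAB replicate 3, are those with Y-linked reads. The other 4 libraries lie closer together, and among them the AT2CAB values (61.6 and 68.5 CPM) are above the AT2CTRL values (56.8 and 52.9 CPM). The log2 fold change was 0.34 (95% interval -0.61 to 1.28, edgeR adjusted p = 0.824), 0.28 without that pair and -0.17 without AT2CAB replicate 3 alone. Immediate early and heat shock genes, which respond rapidly to stimulation or handling of cells, were read beside it. *Fosb* was at 1911, 1079 and 1226 CPM in AT2CTRL and at 973, 1218 and 2777 CPM in AT2CAB, and *Atf3*, chosen after its values were seen, at 650, 396 and 398 CPM and at 316, 354 and 847 CPM. For both, as for *Fos*, the same 2 libraries were the highest of the 6, while *Jun* was highest in AT2CAB replicate 3 (3804 CPM) and then in AT2CTRL replicate 2 (2865 CPM). Of genes named after their values were seen, *Junb* and *Ier2* were highest in AT2CTRL replicate 1 and AT2CAB replicate 3. *Egr1* was highest in AT2CAB replicate 2, and *Zfp36* in AT2CTRL replicates 1 and 2. Over all 10 genes of this list the summed level was 19150, 17560 and 14540 CPM in AT2CTRL. In AT2CAB it was 15430, 13990 and 17320 CPM, so AT2CTRL replicates 1 and 2 were the highest. None of the 10 was at 0, and 0 of 10 had an unadjusted p under 0.05. Without the heat shock genes *Hspa1a* and *Hspa1b*, left out after the values were seen, the sum was 11090, 9018 and 8614 CPM in AT2CTRL. In AT2CAB it was 8276, 9054 and 13170 CPM, and the same 2 libraries as for *Hes1* were the highest. Their part in the values of *Hes1* was not tested.

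*Hey1*, a bHLH repressor downstream of both Notch and BMP in endothelial cells, is on chromosome 3 from 8663359 to 8667038 on the minus strand. It was at 5.20, 5.87 and 4.61 CPM in AT2CTRL and at 5.82, 7.95 and 6.84 CPM in AT2CAB, from between 116 and 210 counts a library. AT2CTRL replicate 2 was just above AT2CAB replicate 1, and the other libraries did not cross. Its log2 fold change was 0.40 (95% interval -0.10 to 0.89, edgeR adjusted p = 0.603).

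**Figure D3:**
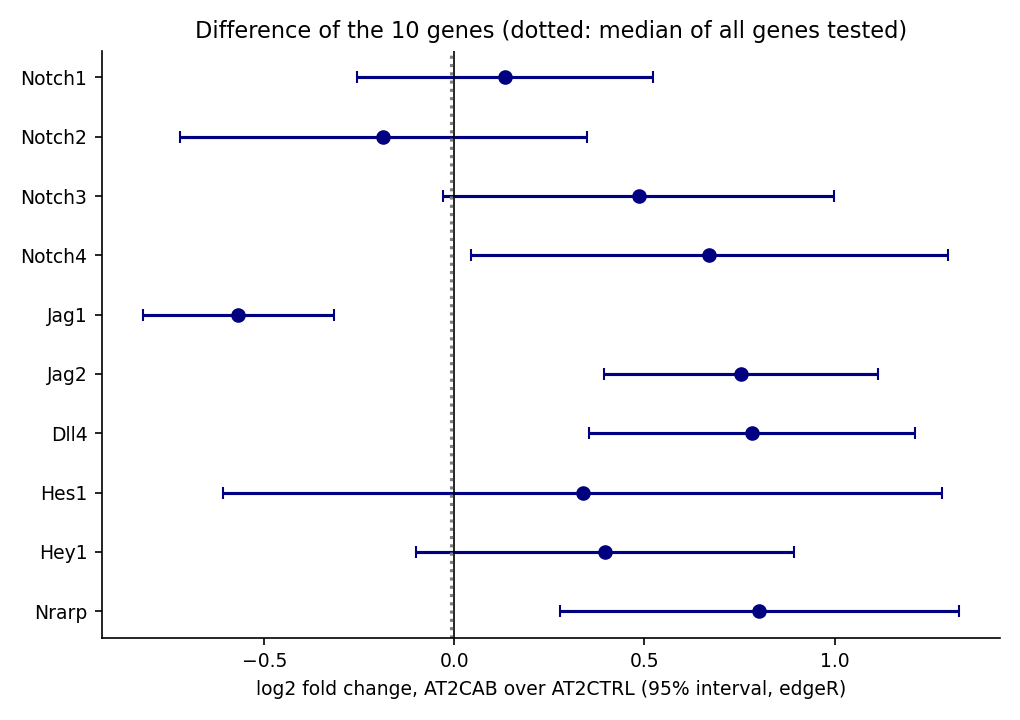
Log2 fold change of AT2CAB over AT2CTRL for the 10 genes with 95% intervals from the edgeR fit (3 libraries against 3). The dotted line is the median of all tested genes, -0.0096. The interval of *Jag1* lies below 0, those of *Notch4*, *Jag2*, *Dll4* and *Nrarp* lie above 0, and the other 5 include 0.

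Per length, the order of mean levels in AT2CTRL was *Hes1* (52.1 ± 24.9 RPKM), *Notch2* (19.5 ± 6.37), *Jag1* (17.5 ± 0.709), *Notch1* (16.1 ± 3.60), *Jag2* (7.69 ± 1.11), *Notch4* (3.11 ± 1.19), *Nrarp* (2.85 ± 0.723), *Notch3* (2.52 ± 0.650), *Hey1* (2.37 ± 0.287) and *Dll4* (2.24 ± 0.415), each in RPKM as mean and SD of 3 libraries. Only *Hes1* and *Notch2*, *Notch1* and *Jag2*, and *Jag2* and *Notch4* were neighbors whose libraries did not overlap. In AT2CAB the order was *Hes1* (65.8 ± 36.3), *Notch1* (17.6 ± 0.461), *Notch2* (17.1 ± 1.31), *Jag2* (13.0 ± 1.97), *Jag1* (11.8 ± 0.992), *Nrarp* (4.98 ± 0.825), *Notch4* (4.94 ± 1.11), *Dll4* (3.86 ± 0.387), *Notch3* (3.53 ± 0.756) and *Hey1* (3.12 ± 0.483). There the neighbors without overlap were *Hes1* and *Notch1*, *Notch2* and *Jag2*, and *Jag1* and *Nrarp*. In both groups the 5 most abundant were thus *Hes1*, *Notch1*, *Notch2*, *Jag1* and *Jag2*.

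For the 3 genes with the smallest p, the genes with the most similar pattern over the 6 libraries were found by the root mean square difference of centered log2 CPM. Those of *Jag1* were *Cebpzos* (0.0516), *Hsp90b1* (0.0580), an endoplasmic reticulum chaperone, and *Pi4k2b* (0.0594), a phosphatidylinositol kinase. Those of *Jag2* were *C1s1* (0.0495), a complement protease, *Ccdc92* (0.0634) and *Dll4* itself (0.0791). Those of *Dll4* were *Col3a1* (0.0612), a fibrillar collagen on the mesenchymal list used here, *Ece1* (0.0626), the endothelin-converting enzyme, and *Entpd5* (0.0780).

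Other genes of the pathway, 59 in all, were read by role, and 56 of them were tested. None passed an adjusted p under 0.05 in edgeR, while 7 were higher and 4 lower at an unadjusted p under 0.05, 6 lay wholly above AT2CTRL and 7 wholly below. Of these genes 30 had a positive and 26 a negative log2 fold change, with a median of 0.0093. The counts are to be read against the background shares given above for all tested genes.

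Among the 9 genes of receptor cleavage, *Adam10*, the protease that makes the first activating cut in Notch, differed most. It was at 61.8, 80.3 and 89.1 CPM in AT2CTRL and at 140, 193 and 177 CPM in AT2CAB, so the groups were far apart. The log2 fold change was 1.14 (SE 0.18, 95% interval 0.74 to 1.54), with an edgeR adjusted p of 0.0576, which misses the threshold, and a DESeq2 adjusted p of 9.44e-06. The 8 other cleavage genes had log2 fold changes between -0.44 and 0.044, none with an unadjusted p under 0.05. *Psenen*, a γ-secretase subunit and the most abundant of the role per length (73.7 ± 14.0 RPKM in AT2CTRL and 65.0 ± 3.44 in AT2CAB, SD, n = 3), had a log2 fold change of -0.18.

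Of 10 corepressor genes, *Tle3*, a Groucho-type corepressor that HES proteins recruit, was at 48.3, 52.8 and 49.3 CPM in AT2CTRL and at 79.3, 98.7 and 122 CPM in AT2CAB. All AT2CAB values lay above all AT2CTRL values, with a log2 fold change of 1.00 (SE 0.16), an edgeR adjusted p of 0.0715 and a DESeq2 adjusted p of 2.00e-05. *Tle4*, of the same family and chosen after its values were seen, lay wholly below instead, with 46.3, 39.3 and 46.6 CPM against 30.8, 26.2 and 34.6 CPM (log2 fold change -0.53, edgeR adjusted p = 0.277). *Aes*, the most abundant of the role at 279 ± 20.6 RPKM in AT2CTRL and 280 ± 3.25 RPKM in AT2CAB (SD, n = 3), was level, with a log2 fold change of 0.0058.

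Among the other members of the Hes and Hey families, *Hes2* was the one that lay wholly below. It was at 23.7, 30.7 and 28.8 CPM in AT2CTRL and at 13.6, 11.2 and 4.30 CPM in AT2CAB, a log2 fold change of -1.53 (95% interval -2.35 to -0.70) with an edgeR adjusted p of 0.218 and a DESeq2 adjusted p of 0.00391. *Heyl* lay wholly above, at 3.45, 5.27 and 3.08 CPM against 6.28, 7.14 and 5.34 CPM (0.67, edgeR adjusted p = 0.499). *Hes6*, which antagonizes HES1, was at 31.8 to 42.6 CPM over all 6 libraries with a log2 fold change of 0.084. *Hes3*, *Hes7* and *Hey2* stayed at 2.57 CPM or less in every library with overlapping groups, and *Hes5* was at 0.179 CPM or less and not tested.

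The remaining ligands were low. *Dll1* was at 6.99, 7.46 and 6.51 CPM in AT2CTRL and at 6.01, 7.41 and 13.6 CPM in AT2CAB, with AT2CAB replicate 3 alone standing high (log2 fold change 0.37, edgeR adjusted p = 0.715, and -0.018 without that library). *Dll3* and the noncanonical ligand *Dlk1* overlapped between the groups (0.031 and 0.38), and both were highest in the 2 libraries with Y-linked reads. Without that pair the log2 fold changes were -0.021 for *Dll1*, 0.88 for *Dll3* and -0.36 for *Dlk1*, and that of *Dlk1* was -1.30 without AT2CAB replicate 3 alone, so none of the 3 kept its value. *Dlk2* and *Dner* were under 1 CPM everywhere and not tested. *Dlk2* overlapped, and *Dner*, at 30 counts or fewer a library, lay wholly above. *Dner* was at 0.179, 0 and 0.114 CPM in AT2CTRL and at 0.550, 0.233 and 0.976 CPM in AT2CAB.

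Among 6 genes that modify or process the receptor, the Fringe glycosyltransferases *Lfng* and *Mfng*, which favor Delta-like over Jagged ligands and were chosen after their values were seen, lay wholly above. *Lfng* was at 2.11, 3.26 and 2.89 CPM in AT2CTRL and at 4.36, 5.74 and 6.18 CPM in AT2CAB (log2 fold change 0.98, edgeR adjusted p = 0.350). *Mfng* was at 1.39, 3.26 and 2.48 CPM and at 4.95, 4.46 and 4.13 CPM (0.92, edgeR adjusted p = 0.470). *Rfng*, another Fringe gene named after its values were seen, was far more abundant and overlapped between the groups. It was at 44.0, 40.8 and 40.7 CPM in AT2CTRL and at 38.3, 42.1 and 53.5 CPM in AT2CAB (0.096, edgeR adjusted p = 0.859). *Furin*, the convertase that cuts the receptor before it reaches the surface and the most abundant of the role, lay wholly below (49.8 ± 3.19 and 42.2 ± 2.21 RPKM, SD, n = 3), with a log2 fold change of -0.24. The nuclear complex was the most even role, with *Snw1* its most abundant gene (-0.13), all 8 log2 fold changes between -0.13 and 0.12 and 0 of 8 at an unadjusted p under 0.05. Of 5 genes of ligand endocytosis 1 was higher at that threshold, with *Mib2*, the most abundant, at -0.024, and of 9 genes of receptor turnover 2 were lower, with *Dtx3* at 0.10.

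**Figure D4:**
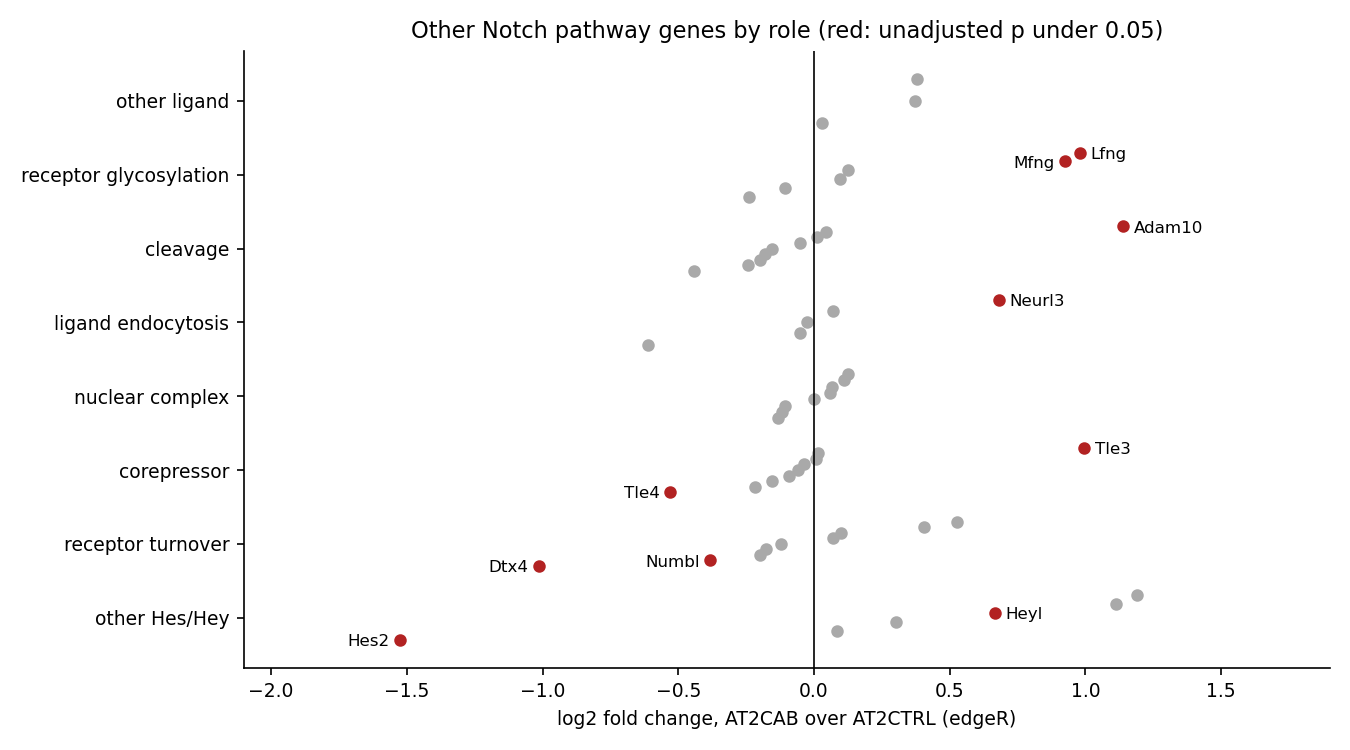
Log2 fold change of AT2CAB over AT2CTRL (edgeR) for tested pathway genes, 1 point a gene, in rows by role. Red points with names had an unadjusted p under 0.05 and none passed the adjusted threshold. *Adam10* (1.14) and *Tle3* (1.00) stand to the right of their roles, *Hes2* (-1.53) and *Dtx4* (-1.01) to the left, and the nuclear complex lies between -0.13 and 0.12.

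Markers of other cell types were read in the same libraries, since several of the genes above are characteristic of endothelial or mesenchymal cells. The 12 endothelial markers summed to 469, 743 and 520 CPM in AT2CTRL and to 654, 967 and 734 CPM in AT2CAB. Of the 12, 11 had higher means in AT2CAB, and 6 were higher at an unadjusted p under 0.05, against 4.62% of all tested genes. None of the 12 was called, and none was at 0. *Pecam1*, *Cdh5* and *Kdr*, which define endothelial cells, had log2 fold changes of 0.63, 0.69 and 0.60, with overlapping groups. Relative to 100 CPM of that sum, *Dll4* was at 1.30, 1.13 and 1.68 in AT2CTRL and at 1.82, 1.39 and 1.99 in AT2CAB, and *Notch4* was at 3.12, 3.96 and 3.38 and at 3.72, 3.69 and 5.18. Both overlapped on this scale, as did *Jag2*, *Hey1* and *Heyl*, and *Nrarp*, at 1.13, 1.20 and 1.51 and at 1.64, 1.55 and 1.74, did not, nor did *Lfng*. That separation rested on *Esam*, named after its values were seen, which was at 185, 173 and 151 CPM in AT2CTRL and at 150, 163 and 173 CPM in AT2CAB and was the 1 marker of the list with a negative log2 fold change (-0.068). Without *Esam* the sum was 284, 570 and 369 CPM in AT2CTRL and 504, 804 and 561 CPM in AT2CAB. On that scale *Nrarp* was at 1.87, 1.56 and 2.13 and at 2.13, 1.86 and 2.28, and *Lfng*, *Dll4*, *Notch4*, *Jag2*, *Hey1* and *Mfng* overlapped as well.

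The 11 mesenchymal markers summed to 155 to 205 CPM in AT2CTRL and to 246 to 305 CPM in AT2CAB without overlap. All 11 had higher means in AT2CAB, 4 were higher at an unadjusted p under 0.05 and 4 lay wholly above. None of the 11 was called and none was at 0. Over all tested genes 4.62% were higher at an unadjusted p under 0.05 and 7.0% lay wholly above. *Pdgfra*, *Pdgfrb* and *Col1a1* had log2 fold changes of 0.33, 0.67 and 0.70. Relative to 100 CPM of that sum, *Notch3* was at 9.81, 12.4 and 10.5 in AT2CTRL and at 8.61, 10.5 and 11.3 in AT2CAB, which overlapped. *Jag2* on that scale was at 16.8, 16.9 and 17.8 and at 18.9, 16.3 and 22.4, also overlapping. *Heyl*, at 2.22, 2.57 and 1.68 and at 2.56, 2.34 and 1.95, overlapped as well. Immune markers (12) summed to 67.2 to 76.9 CPM in AT2CTRL and to 61.4 to 143 CPM in AT2CAB, with higher means in AT2CAB for 11 of the 12, a median log2 fold change of 0.66 and none called. Airway markers (8) summed to 723 to 916 and to 840 to 1220 CPM, with the basal cell keratin *Krt5* at 0 in all 6 libraries. Of the 7 tested airway genes 4 had a positive and 3 a negative log2 fold change. *Scgb1a1* (0.17) and *Scgb3a2* (-0.058) overlapped between the groups, and *Cyp2f2*, a club cell gene, lay wholly below (-0.53, edgeR adjusted p = 0.190). *Tppp3*, known from ciliated cells and named after its values were seen, was the 1 called higher (log2 fold change 1.85, edgeR adjusted p = 0.0165). *Foxj1*, also named after its values were seen, lay wholly above and was not called (0.61, edgeR adjusted p = 0.570). AT1 markers (7) summed to 1718 to 2675 CPM in AT2CTRL and to 1998 to 2292 CPM in AT2CAB, with *Ager* alone at 1184 to 1995 and at 1454 to 1634 CPM. Of the 7, 5 had a positive and 2 a negative log2 fold change, with a median of 0.39. At an unadjusted p under 0.05, 1 was higher and 1 lower, against 4.62% and 5.05% of all tested genes, and none was called. The 8 AT2 markers summed to 112500 to 127200 CPM in AT2CTRL and to 97510 to 107900 CPM in AT2CAB. The AT2 sums did not overlap, and 7 of the 8 AT2 markers had lower means in AT2CAB. Of the 8, 4 lay wholly below, 3 were lower at an unadjusted p under 0.05 and none was called. Over all tested genes 10.1% lay wholly below and 5.05% were lower at an unadjusted p under 0.05. The part of these cell types in the values of *Jag1*, *Dll4*, *Jag2*, *Notch3*, *Notch4*, *Nrarp*, *Heyl*, *Lfng* and *Mfng* was not tested.

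**Figure D5:**
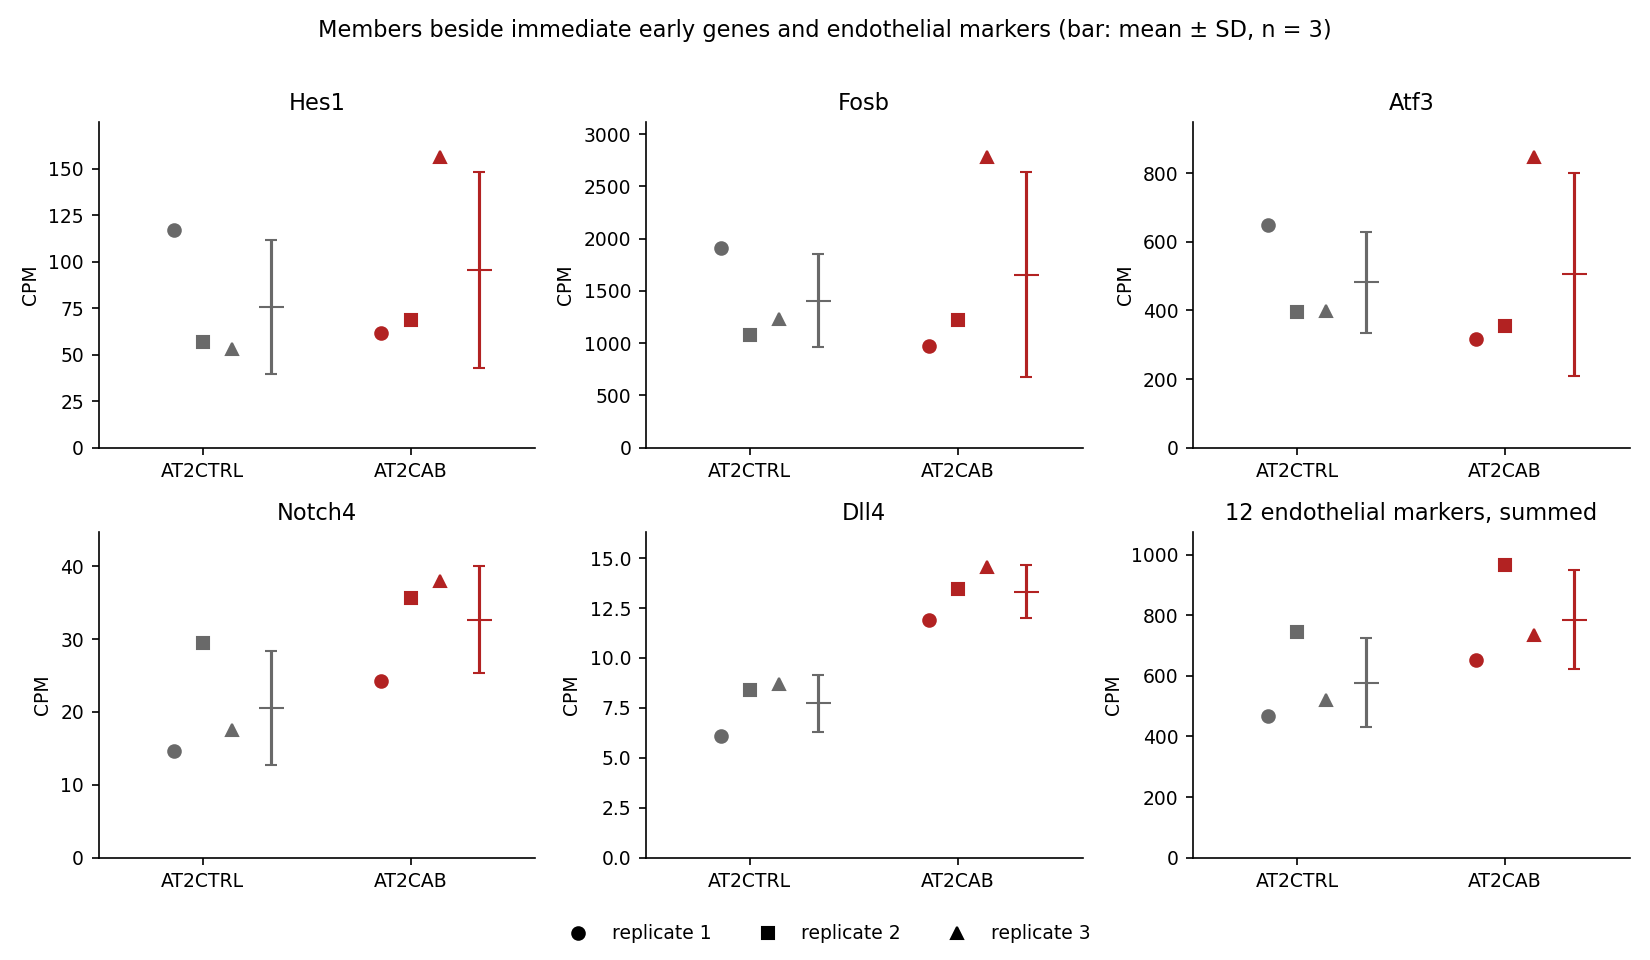
*Hes1* beside the immediate early genes *Fosb* and *Atf3* (top), and *Notch4* and *Dll4* beside the sum of 12 endothelial markers (bottom), in CPM on linear axes that start at 0, with 1 point a library and the mean and SD of each group (n = 3). In the top row AT2CTRL replicate 1 and AT2CAB replicate 3 are the 2 highest libraries in each panel, and *Atf3* was chosen after its values were seen. On the same list *Fos*, *Junb* and *Ier2* shared this pattern, and *Jun*, *Egr1*, *Zfp36*, *Hspa1a* and *Hspa1b* did not. In the bottom row the endothelial sum is highest in AT2CAB replicate 2 (967 CPM) and *Dll4* is highest in AT2CAB replicate 3 (14.6 CPM).

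Without the 2 libraries that hold Y-linked reads, the comparison had 2 libraries a group. None of the 10 genes was called there either, where 0.447% of tested genes were called higher and 0.245% lower. *Notch2* was at a log2 fold change of -0.41 and *Hes1* at 0.28, with edgeR adjusted p of 0.120 and 0.271. *Jag1* was at a log2 fold change of -0.49, *Jag2* at 0.54, *Dll4* at 0.60 and *Nrarp* at 0.66, each in the same direction as with all 6 libraries and each smaller in size. Of the other pathway genes *Adam10* (1.01) and *Tle3* (0.84) were called higher, with edgeR adjusted p of 0.0439 and 0.0348. *Hes2* (-1.24) and *Dtx4*, an E3 ligase of receptor turnover that lay wholly below in the full set, were called lower, with edgeR adjusted p of 0.0170 and 0.0397.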

How the data were processed

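The authors trimmed poly(A/T) tails and adaptors from paired reads, aligned them to mm10 with Hisat2, removed duplicates and counted on genes with featureCounts 1.5.3, and deposited raw counts for 24421 genes in 6 libraries with the summed exon length of each gene. The methods state that fragments were counted, but per the file header no read-pair option was set, and strand was not used. Even numbers made up 56.9% to 60.8% of counts from 1 to 20, so mates appear to have been counted separately, which overstates the precision of low counts. Reads falling on more than 1 gene were not counted. The labels and the methods name different RNA kits of the same maker.

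Groups and replicate numbers came from the sample titles. All tested genes were fitted with edgeR 4.0.16 in R 4.3.3 (TMM scaling, default filter at a minimum count of 10). Calls were made at an adjusted p under 0.05 by the quasi-likelihood test with Benjamini-Hochberg adjustment. The SE is the size of the log2 fold change over the square root of F. CPM and RPKM use TMM-scaled totals and the deposited length. The methods name DESeq2 (1.42.0 here), which was run as an alternative, as were limma-voom (3.58.1), other scalings, no filter, halved counts, age, the replicate number and left-out libraries.

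The 10 genes and all lists were chosen with earlier results of these data known. Named pathway genes are all other ligands and Hes/Hey genes, the most abundant per length of each other role, those called, and the 3 with the smallest p. Named markers are among the first 3 of a list or at 0, and not every list has its first 3 named. Similar genes were sought for the 3 members with the smallest p, on log2 CPM with a prior count of 2. Genes outside these rules were picked after seeing their values and are so described, and the ratios to marker sums, and the sums without *Esam* or the heat shock genes, were also added then. Promoter sequences are RefSeq's on GRCm38.p6. Of the pathway list, 1 gene was counted but is neither plotted nor reported here.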

Additional observations from a re-analysis of the deposited data

How the results depend on the processing

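The number of the 10 genes called stayed at 0 in each direction under every alternative but DESeq2, which called 2 higher (*Jag2* and *Dll4*) and 1 lower (*Jag1*), and the cause was not tested. Of the other pathway genes, 0 were called higher in the full set. Upper-quartile scaling and the replicate block each called 1 (*Adam10*). Scaling by library size only, no expression filter, DESeq2 and leaving out the pair with Y-linked reads each called 2 (*Adam10* and *Tle3*). Leaving out 1 library gave 0 to 1, the 1 being *Tle3* without AT2CAB replicate 1 (edgeR adjusted p = 0.0288). Called lower, against 0 in the full set, were 1 with DESeq2 (*Hes2*) and 2 without that pair (*Hes2* and *Dtx4*). Among the 10 genes, signs reversed for *Notch1* without that pair (-0.000926) and without AT2CTRL replicate 1, and for *Hes1* without AT2CAB replicate 3. With 1 library left out *Notch1* ranged from -0.048 to 0.23 and *Hes1* from -0.17 to 0.79. Of the 56 other pathway genes, 29 had the other sign under at least 1 alternative, 0 of them at an unadjusted p under 0.05 in the full set or there. *Jag1*, *Jag2*, *Dll4* and *Nrarp* kept their direction in all alternatives, with log2 fold changes from -0.61 to -0.44, 0.54 to 0.89, 0.60 to 0.92 and 0.61 to 0.96, and adjusted p from 0.00319 to 0.695, 0.00774 to 0.566, 0.0431 to 0.781 and 0.111 to 0.781. The median log2 fold change of all genes was 0.12 with library size only, so values under that scaling are shifted upward by about that much. Same-numbered libraries had correlated deviations of -0.24, 0.20 and -0.53 and share only a number. The replicate block changed no other call among the 10 genes and the other pathway genes. Over the whole table it called 36 genes higher and 5 lower. In the main fit, genes called over the whole table were 40 higher and 2 lower. They were 198 and 88 with DESeq2, 73 and 40 without the pair, and as few as 6 and 0 without AT2CTRL replicate 2. Low counts kept *Dlk2*, *Dner* and *Hes5* out of the test.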
